A study of Mus musculus with 28 samples.

Results

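Potassium channel genes were described here as the protein-coding mouse genes whose symbols begin with Kcn, in RNA-seq of 4 brain regions. A gene was taken when it had a level above 1 CPM (counts per 1000000 counts on genes) in at least 2 of the 28 libraries, and 5 further Kcn genes were left out by the rule. Of the 89 remaining Kcn genes in the count files, 77 passed, among 14979 genes of any kind that passed and 29878 genes listed. The 77 genes comprised 26 voltage-gated alpha subunits, 9 silent modifiers, 11 auxiliary subunits, 7 genes grouped as channels activated by calcium or sodium, 12 inward rectifiers, 11 two-pore-domain channels and Kcnrg, which encodes a regulator rather than a channel. Families followed the symbol prefix, and Kcnu1 was placed with the channels activated by calcium or sodium by its prefix alone. Kcnk7 and Kcne4 passed narrowly, with highest levels of 1.19 and 1.27 CPM in 2 libraries above the minimum each, whereas Kcnv2 reached 1.28 CPM in 1 library only and was not included. The other 11 genes that did not pass were Kcna7, Kcna10, Kcne1, Kcne3, Kcnj1, Kcnj15, Kcnk15, Kcnk16, Kcnk18, Kcnmb3 and Kcnn4.

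Libraries came from adult male mice of 2 to 3 months on a C57Bl/6 background that were wild type (WT), heterozygous (Het) or homozygous (KO) for a knockout of Hdc, which encodes histidine decarboxylase, the enzyme that makes histamine. Dorsal striatum was represented by 2 WT, 3 Het and 2 KO libraries, ventral striatum and hypothalamus by 3 WT, 3 Het and 2 KO libraries each, and motor cortex by 1 WT, 2 Het and 2 KO libraries. The library names carry numbers from 1 to 8 that recur across regions, so libraries of different regions may come from the same mice, which the labels do not say, and the tests treated libraries as independent. The study asked how loss of Hdc alters transcripts in each region, and the 4 regions also allow the channel genes to be compared between regions.

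Potassium channels let potassium leave or enter the cell and thereby set the resting potential, shape the action potential and limit repetitive firing. Voltage-gated alpha subunits open on depolarization, silent modifiers form no channel alone but alter their partners, and auxiliary subunits change gating and surface expression. Inward rectifiers and two-pore-domain channels hold the membrane near rest, and some inward rectifiers are opened by G proteins or closed by ATP. Spiny projection neurons of the striatum are known for strong inward rectification and A-type currents, and astrocytes for potassium uptake through Kir4.1.

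The promoters of 4 inward rectifiers are shown because these genes of 1 family had different regional patterns in the libraries: Kcnj2 and Kcnj4 were highest in the dorsal striatum, Kcnj3 in the motor cortex and Kcnj5 in the hypothalamus. Each window covers 250 bases before and 50 bases after the annotated start, read 5′ to 3′ on the strand of the gene (RefSeq, GRCm38.p6), with capitals marking the GC box GGGCGG or its reverse complement CCGCCC.
Kcnj2 promoter, chr11:111065914-111066213, plus strand: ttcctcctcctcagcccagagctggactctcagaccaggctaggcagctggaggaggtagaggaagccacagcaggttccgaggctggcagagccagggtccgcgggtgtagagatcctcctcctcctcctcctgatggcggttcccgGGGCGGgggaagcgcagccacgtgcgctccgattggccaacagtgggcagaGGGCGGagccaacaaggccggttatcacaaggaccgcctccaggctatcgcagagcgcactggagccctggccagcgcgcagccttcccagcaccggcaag
Kcnj3 promoter, chr2:55435720-55436019, plus strand: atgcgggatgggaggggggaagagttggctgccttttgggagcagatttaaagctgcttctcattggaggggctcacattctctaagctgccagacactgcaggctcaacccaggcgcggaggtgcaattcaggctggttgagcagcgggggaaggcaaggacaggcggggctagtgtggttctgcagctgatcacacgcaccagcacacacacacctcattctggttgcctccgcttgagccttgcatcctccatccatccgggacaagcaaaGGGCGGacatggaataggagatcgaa
Kcnj4 promoter, chr15:79505192-79505491, minus strand: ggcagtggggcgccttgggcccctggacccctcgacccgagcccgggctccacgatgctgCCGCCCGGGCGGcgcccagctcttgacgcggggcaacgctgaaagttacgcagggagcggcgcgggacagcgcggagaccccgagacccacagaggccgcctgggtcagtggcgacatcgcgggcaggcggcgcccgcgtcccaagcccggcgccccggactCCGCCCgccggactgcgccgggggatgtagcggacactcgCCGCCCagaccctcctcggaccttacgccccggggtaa
Kcnj5 promoter, chr9:32344295-32344594, minus strand: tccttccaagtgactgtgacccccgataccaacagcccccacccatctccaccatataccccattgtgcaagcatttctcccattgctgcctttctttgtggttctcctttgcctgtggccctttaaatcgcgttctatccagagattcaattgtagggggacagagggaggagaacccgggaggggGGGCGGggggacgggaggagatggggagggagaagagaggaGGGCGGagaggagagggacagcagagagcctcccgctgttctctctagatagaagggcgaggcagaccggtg

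The GC box was found once in the Kcnj3 window, 2 times each in those of Kcnj2 and Kcnj5, and 4 times in that of Kcnj4. The same windows held 10 CpG dinucleotides in Kcnj3, 18 in Kcnj2, 10 in Kcnj5 and 41 in Kcnj4. Of the 77 genes, 55 had an entry in the promoter table, in 76 windows, and 50.0% of these windows held GGGCGG on either strand, against 35.7% of all 32851 windows. The median window held 10 CpG dinucleotides for the channel genes and 7 for all genes. The letters are a description of these windows: genes with opposite regional patterns both held the motif.

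The 28 libraries held between 3536802 and 5150280 counts on genes, and CPM below are scaled by TMM factors. Hdc itself was counted in all regions, and its counts gave no simple check of the labels. In dorsal striatum, ventral striatum and motor cortex, libraries labelled WT had 0 to 6 counts, those labelled Het 17 to 33 and those labelled KO 29 to 51, so the libraries labelled KO were above those labelled WT. In the hypothalamus, where histamine neurons lie, the counts were 79 to 111 in WT, 78 to 117 in Het and 54 to 66 in KO. Counts per gene do not show which exons were read, so genotypes below are given as labelled. The labelled regions carried their markers: the summed level of 9 striatal neuron markers was 7423 to 10650 CPM in dorsal striatum, 1741 to 4068 in ventral striatum and at most 236 elsewhere, and that of 8 cortical excitatory markers was 2105 to 2304 CPM in motor cortex. Some libraries stood apart in markers of other tissue. KO dorsal striatum 7 had 442 CPM of the cortical markers (other dorsal striatum libraries 90.7 to 191), KO hypothalamus 8 had 567 (other hypothalamus libraries 213 to 334), and KO dorsal striatum 8 had 2841 CPM of 6 choroid plexus markers (other dorsal striatum libraries 3.30 to 68.6). In whole tissue, fewer cells of a type and less RNA per cell cannot be told apart.

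The summed level of the 77 genes was 3808 to 4371 CPM in dorsal striatum, 2761 to 3149 in ventral striatum, 4754 to 4923 in motor cortex and 2650 to 3324 in hypothalamus. The motor cortex libraries were above all others and the dorsal striatum libraries above those of ventral striatum and hypothalamus, which overlapped. With libraries scaled by total count alone, dorsal striatum (3204.8 to 3923.8 CPM) and hypothalamus (3117.9 to 3665.3 CPM) overlapped. Motor cortex again stood above all others under that scaling, at 4369.7 CPM or more. Per kilobase of exon, which allows genes to be set side by side, the median voltage-gated alpha subunit stood at 9.64 CPM per kb in motor cortex, 5.61 in ventral striatum, 5.52 in hypothalamus and 3.996 in dorsal striatum. The summed CPM of this family had another order, at 2782 to 2953 in motor cortex and 2218 to 2446 in dorsal striatum. The sum was 1610 to 1908 CPM in ventral striatum and 1448 to 1872 CPM in hypothalamus. The median two-pore-domain channel was lowest of the 6 families in each region, between 0.333 and 0.894 CPM per kb. The highest mean levels per kb were those of Kcnd2 in dorsal striatum (62.9) and ventral striatum (33.5), Kcnab2 in motor cortex (51.2) and Kcnj10 in hypothalamus (78.2). Kcnd2 encodes the A-type channel Kv4.2, Kcnab2 a cytoplasmic beta subunit of Kv1 channels, and Kcnj10 the astrocytic inward rectifier Kir4.1.

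**Figure D1:**
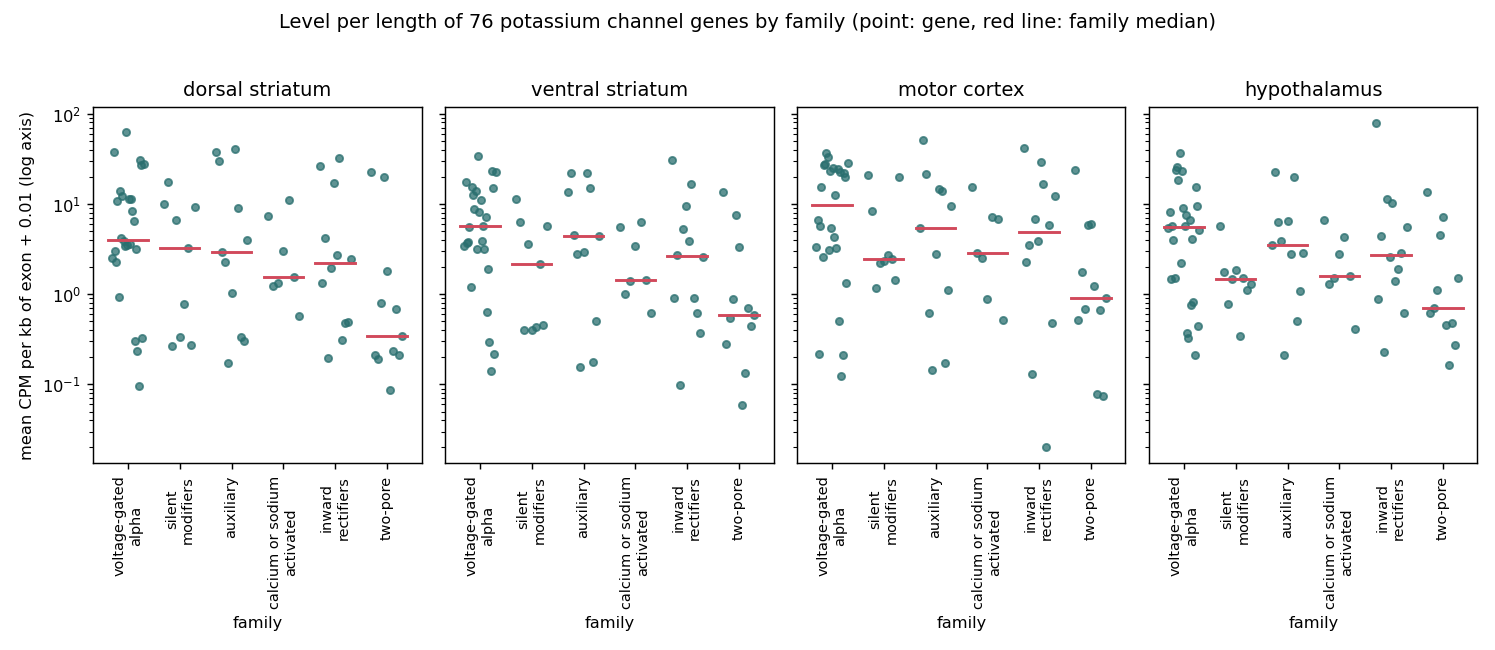
Mean level of each potassium channel gene per kilobase of exon (CPM per kb + 0.01, log axis) by family in the 4 regions, without Kcnrg, with 1 point per gene and a red line at the family median. The two-pore-domain family has the lowest median in each region, from 0.333 in dorsal striatum to 0.894 in motor cortex, and single genes of other families exceed 30 in each region.

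Differences between regions were tested with edgeR's likelihood ratio test, averaged over the genotypes, and called at a Benjamini-Hochberg adjusted p under 0.05 over all 14979 genes. Between dorsal and ventral striatum, 40 of the 77 channel genes were called (29.0% of all genes were), 25 higher in dorsal striatum (all genes 14.6%) and 15 lower (14.4%). When libraries were scaled by total count alone, 47 were called, with 22 higher and 25 lower. Motor cortex differed from dorsal striatum in 59 channel genes (all genes 43.4%), 40 higher in motor cortex (22.0%) and 19 lower (21.4%). Motor cortex differed from ventral striatum in 54 (all genes 43.7%), 41 higher (21.5%) and 13 lower (22.2%). Hypothalamus differed from dorsal striatum in 61 (all genes 56.1%), 33 higher in hypothalamus (30.7%) and 28 lower (25.5%). It differed from ventral striatum in 56 (all genes 43.6%), 32 higher (23.9%) and 24 lower (19.7%). It differed from motor cortex in 56 (all genes 48.2%), 17 higher in hypothalamus (25.4%) and 39 lower (22.9%). The share called among channel genes was above that of all genes in each of the 6 comparisons, but channel genes lower in motor cortex than in ventral striatum, and higher in hypothalamus than in motor cortex, were not above the share of all genes.

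**Figure D2:**
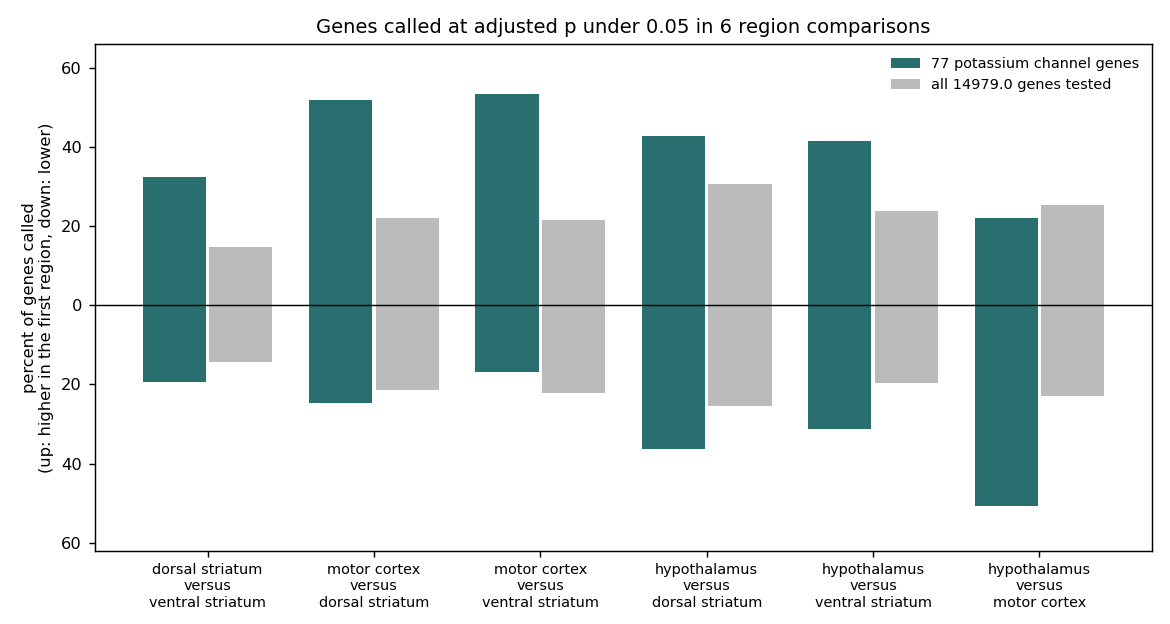
Percent of the 77 potassium channel genes (teal) and of all 14979 genes tested (grey) called at an adjusted p under 0.05 in 6 region comparisons, with genes higher in the first-named region drawn upwards and lower ones downwards. The teal bars are longest for genes higher in motor cortex than in either striatal region (40 and 41 genes) and lower in hypothalamus than in motor cortex (39 genes).

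The direction was also seen in single libraries. Library ranges did not overlap between motor cortex and dorsal striatum for 54 of the 77 genes (all genes 26.4%), and between motor cortex and ventral striatum for 40 (24.6%). Between hypothalamus and motor cortex they did not overlap for 48 (30.3%), between hypothalamus and dorsal striatum for 45 (27.9%), between hypothalamus and ventral striatum for 32 (16.0%) and between dorsal and ventral striatum for 24 (9.65%). Over the 77 genes, the median log2 fold change was 0.63 in motor cortex against dorsal striatum and 0.44 against ventral striatum, where the medians of all genes were -0.03 and -0.04. It was -0.49 in hypothalamus against motor cortex (all genes 0.05), 0.15 against dorsal striatum (0.05) and 0.30 against ventral striatum (0.03), and -0.02 between dorsal and ventral striatum (-0.01). Scaling by total count alone moved the median of all genes to 0.41 in hypothalamus against dorsal striatum, 0.28 against motor cortex and 0.24 against ventral striatum, and to -0.17 between dorsal and ventral striatum. Kcnma1 was the only called channel gene that changed sign with it, in hypothalamus against dorsal striatum.

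A channel gene called above all 3 other regions was found 23 times for motor cortex (29.9% of the 77 genes, 10.6% of all genes), 14 times for dorsal striatum (18.2%, all genes 7.53%), 10 times for hypothalamus (13.0%, all genes 11.7%) and 0 times for ventral striatum (all genes 1.28%). A channel gene called below all 3 other regions was found 20 times for hypothalamus (26.0%, all genes 9.23%), 13 times for dorsal striatum (16.9%, all genes 6.56%), and 4 times each for ventral striatum and motor cortex (5.19%, all genes 1.2% and 7.85%). With libraries scaled by total count alone, hypothalamus was highest for 16 and lowest for 14 channel genes and dorsal striatum was lowest for 20, whereas all 23 genes highest in motor cortex were found again. Of the 77 genes, 15 were called in all 6 comparisons, and Kcne4, Kcnj8, Kcnk6, Kcnrg and Kcnu1 in none.

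**Figure D3:**
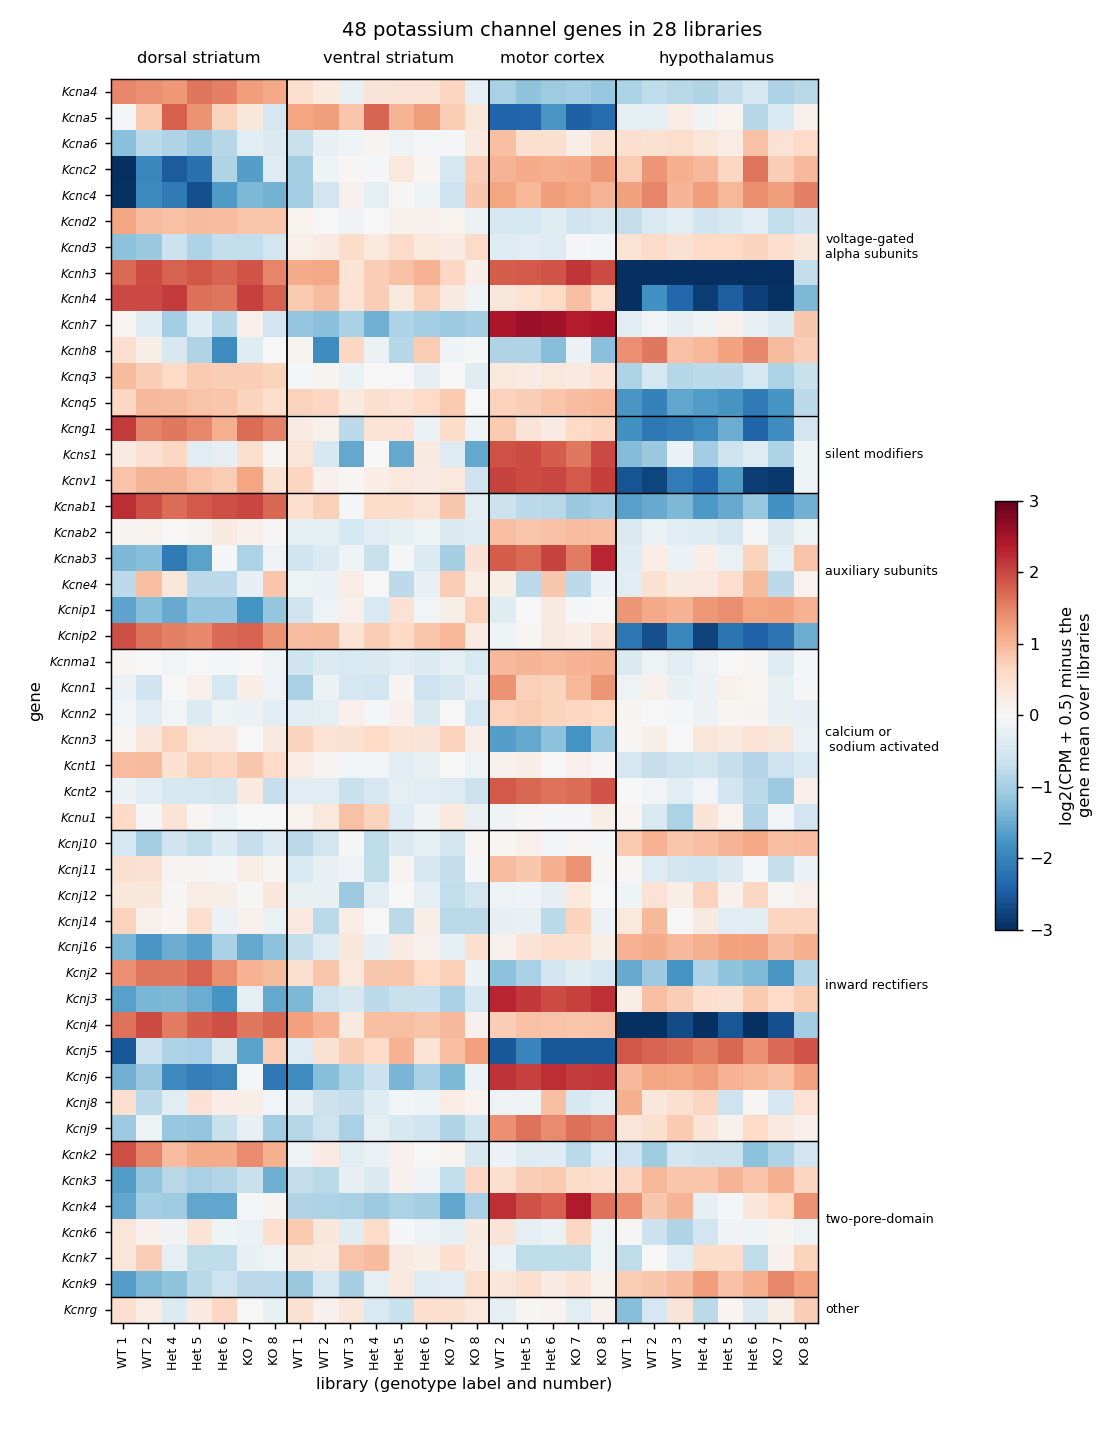
Level of the 48 potassium channel genes named in the text (rows, grouped by family) in 28 libraries (columns, grouped by region), as log2(CPM + 0.5) minus the mean of the gene over all libraries, with red above and blue below that mean and colours limited to 3 in either direction. Kcnh3, Kcnh4, Kcnj4, Kcnv1 and Kcnip2 are blue in hypothalamus, Kcnh7, Kcnj3 and Kcnj6 are red in motor cortex, and library KO hypothalamus 8 is paler than its neighbours for Kcnh3, Kcnj4 and Kcnv1.

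Of the 26 voltage-gated alpha subunits, 13 were called higher (all genes 22.0%) and 6 lower (21.4%) in motor cortex than in dorsal striatum, with Kcnh7 and the Kv3 genes Kcnc2 and Kcnc4 among the largest differences. Kcnh7 encodes the ERG3 channel. Its level was 337, 373, 357, 322 and 334 CPM in the 5 motor cortex libraries, against 30.2 to 68.6 (median 47.8) in dorsal striatum, 22.6 to 32.5 (29.7) in ventral striatum and 46.6 to 109 (55.3) in hypothalamus. Every motor cortex library was above all others, with a log2 fold change over dorsal striatum of 2.82, SE 0.157, edgeR adjusted p = 9.36e-69, and over ventral striatum of 3.57, SE 0.156, edgeR adjusted p = 1.92e-111. Kcnc2 and Kcnc4 encode Kv3.2 and Kv3.4, channels that open at strong depolarization. Kcnc4 ranged from 6.60 to 21.2 (median 14.1) CPM in dorsal striatum, 26.8 to 95.1 (46.8) in ventral striatum and 108 to 155 (131) in hypothalamus, and stood at 124, 109, 132, 125 and 111 CPM in motor cortex. Dorsal striatum was lowest without overlap (log2 fold change of dorsal over ventral striatum -1.88, SE 0.182, edgeR adjusted p = 2.53e-22), while motor cortex and hypothalamus overlapped. Kcnc2 was also lowest in the striatum, but its wide spread there, 7.50 to 67.7 CPM in dorsal and 43.5 to 150.0 in ventral striatum, left these ranges overlapping (log2 fold change -1.75, SE 0.238, edgeR adjusted p = 2.47e-11).

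Kcnd2 and Kcna4, which encode the A-type channels Kv4.2 and Kv1.4, were highest in dorsal striatum. Kcnd2 ranged from 299.7 to 388 (median 320.3) CPM in dorsal striatum, 147 to 186 (176) in ventral striatum and 102 to 136 (117) in hypothalamus, and was 119, 116, 131, 112 and 120.3 in motor cortex. The dorsal striatum libraries were above all others (log2 fold change over ventral striatum 0.92, SE 0.0730, edgeR adjusted p = 3.21e-34). Kcna4 ranged from 151 to 208 (median 179) CPM in dorsal striatum, 56.7 to 108 (90.6) in ventral striatum, 35.4 to 47.9 (38.3) in hypothalamus and 29.4 to 34.4 (32.4) in motor cortex, without overlap between any of the 4 regions (log2 fold change of dorsal over ventral striatum 1.06, SE 0.108, edgeR adjusted p = 2.23e-21). Kcnd3, which encodes the related Kv4.3, had the other order in the striatum, with 25.2 to 40.9 CPM in dorsal and 66.3 to 89.6 CPM in ventral striatum and no overlap (log2 fold change -1.25, SE 0.0850, edgeR adjusted p = 1.32e-46). Kcnq3, a subunit of the M-current, was highest in dorsal striatum (352 to 449.7 CPM) and lowest in hypothalamus (119.8 to 162 CPM). Kcnq5, of the same family, ranged from 177 to 243 CPM in dorsal striatum, 122 to 211 in ventral striatum and 198 to 244 in motor cortex, which overlapped, and from 27.7 to 70.9 in hypothalamus, which lay below them all (log2 fold change of hypothalamus over ventral striatum -2.10, SE 0.118, edgeR adjusted p = 1.89e-64).

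Kcnh3 and Kcnh4, which encode the ELK channels Kv12.2 and Kv12.3, were low in hypothalamus. Kcnh3 ranged from 52.8 to 74.3 (median 64.6) CPM in dorsal striatum and 21.5 to 42.3 (33.3) in ventral striatum, was 67.1, 68.3, 70.2, 84.9 and 73.5 in motor cortex, and ranged from 0.344 to 11.2 (0.823) in hypothalamus. The highest hypothalamic value belonged to KO hypothalamus 8, the library with the highest cortical marker sum of its region. The log2 fold change of hypothalamus over motor cortex was -5.52, SE 0.269, edgeR adjusted p = 1.76e-123, and it lay between -6.44 and -5.15 when any 1 library was left out. Kcnh4 ranged from 26.7 to 38.1 CPM in dorsal striatum, 7.84 to 16.4 in ventral striatum, 10.8 to 16.4 in motor cortex and 0.387 to 3.01 in hypothalamus, so that dorsal striatum stood above and hypothalamus below the others without overlap (log2 fold change of hypothalamus over dorsal striatum -4.67, SE 0.229, edgeR adjusted p = 8.05e-155). Kcnh8, the remaining ELK gene, was low everywhere and highest in hypothalamus, with 2.58 to 4.99 CPM there and 0.257 to 1.12 CPM in motor cortex (log2 fold change 2.71, SE 0.526, edgeR adjusted p = 3.81e-10). Kcna5, which encodes Kv1.5, ranged from 3.15 to 17.3 CPM in dorsal striatum and was 0.481, 0.483, 1.03, 0.448 and 0.541 CPM in motor cortex, the lowest of the regions (log2 fold change of motor cortex over dorsal striatum -3.63, SE 0.508, edgeR adjusted p = 1.14e-19). Other annotated genes shared 39.6% of the exon length of Kcna6, so its counts are less certain.

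All 9 silent modifiers were called between dorsal striatum and both motor cortex (all genes 43.4%) and hypothalamus (all genes 56.1%), 6 of them higher in motor cortex than in dorsal striatum (all genes 22.0%), and 6 lower in hypothalamus than in dorsal striatum (all genes 25.5%). With libraries scaled by total count alone, the split in hypothalamus was again 3 higher and 6 lower. That in motor cortex was then 6 higher and 2 lower, against 6 and 3. Kcnv1 encodes Kv8.1, a modifier of other voltage-gated channels. It stood at 93.5, 88.6, 91.6, 81.8 and 95.7 CPM in motor cortex, 31.0 to 51.3 (median 41.1) in dorsal striatum, 14.4 to 35.2 (26.3) in ventral striatum and 2.60 to 20.4 (3.68) in hypothalamus, where KO hypothalamus 8 was again the highest (log2 fold change of hypothalamus over motor cortex -3.97, SE 0.247, edgeR adjusted p = 5.57e-56). Kcng1, which encodes Kv6.1, was highest in dorsal striatum at 55.6 to 113 (median 74.0) CPM and lowest in hypothalamus at 4.48 to 17.4 (6.69), with ventral striatum at 14.9 to 38.0 and motor cortex at 30.9 to 45.0 (log2 fold change of dorsal over ventral striatum 1.48, SE 0.160, edgeR adjusted p = 1.85e-18). Kcns1, the gene of Kv9.1, was low but set motor cortex apart, with 6.05 to 8.11 CPM there and at most 2.85 CPM in any other library (log2 fold change of motor cortex over ventral striatum 2.76, SE 0.339, edgeR adjusted p = 1.22e-18).

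Of the 11 auxiliary subunits, 10 were called between hypothalamus and dorsal striatum (all genes 56.1%), 6 higher in hypothalamus (30.7%) and 4 lower (25.5%), and 6 and 2 when libraries were scaled by total count alone. The beta subunits of Kv1 channels had separate patterns. Kcnab1 ranged from 276 to 398 (median 326) CPM in dorsal striatum, 68.8 to 150.1 (124) in ventral striatum and 24.1 to 38.4 (29.8) in hypothalamus, and was 54.6, 49.2, 47.6, 39.0 and 41.9 in motor cortex. No regions overlapped, and the log2 fold change of dorsal over ventral striatum was 1.496, SE 0.125, edgeR adjusted p = 3.15e-30. Kcnab3 instead was highest in motor cortex, at 48.4 to 80.0 CPM against 3.26 to 15.5 in dorsal striatum (log2 fold change 2.89, SE 0.279, edgeR adjusted p = 6.86e-24). The KChIP subunits of Kv4 channels split as well. Kcnip2 ranged from 116 to 174 CPM in dorsal striatum, 53.6 to 90.5 in ventral striatum, 41.3 to 61.4 in motor cortex and 6.11 to 15.9 in hypothalamus (log2 fold change of hypothalamus over dorsal striatum -3.86, SE 0.135, edgeR adjusted p = 1.16e-169). Kcnip1 ranged from 4.60 to 7.36 CPM in dorsal striatum, 11.2 to 27.8 in ventral striatum, 13.2 to 20.8 in motor cortex and 35.7 to 45.8 in hypothalamus (log2 fold change of hypothalamus over dorsal striatum 2.67, SE 0.150, edgeR adjusted p = 1.15e-78). The dorsal striatum thus had the highest levels of Kcnip2 and the lowest of Kcnip1, and the hypothalamus the reverse.

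Among the 7 genes grouped as channels activated by calcium or sodium, Kcnma1, Kcnn1, Kcnn2 and Kcnt2 were called highest in motor cortex (all genes 10.6%). Kcnma1 encodes the large-conductance BK channel and stood at 249, 259, 254, 259.6 and 267 CPM in motor cortex, 113 to 131 (median 126) in dorsal striatum, 83.3 to 103 (94.6) in ventral striatum and 92.8 to 129.6 (113) in hypothalamus (log2 fold change of motor cortex over ventral striatum 1.44, SE 0.075, edgeR adjusted p = 6.24e-82). Kcnt2, which encodes the sodium-activated channel Slick, was 42.5 to 50.8 CPM in motor cortex and at most 16.6 CPM in any other library (log2 fold change of motor cortex over ventral striatum 2.26, SE 0.159, edgeR adjusted p = 6.95e-47). Its relative Kcnt1, the gene of Slack, was highest in dorsal striatum at 86.4 to 121 CPM. Kcnn3, which encodes the small-conductance channel SK3, was lowest in motor cortex, at 7.69, 8.45, 10.6, 6.94 and 11.6 CPM against 25.8 to 41.6 in dorsal striatum, 29.1 to 41.1 in ventral striatum and 21.9 to 34.5 in hypothalamus. Motor cortex lay below the other regions (log2 fold change over dorsal striatum -1.82, SE 0.158, edgeR adjusted p = 4.15e-32), which overlapped one another. Between hypothalamus and dorsal striatum, 0 genes of this family were called higher (all genes 30.7%) and 2 lower (25.5%) by edgeR's likelihood ratio test, against 5 higher and 1 lower when libraries were scaled by total count alone.

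The 12 inward rectifiers did not share 1 regional order. Kcnj2 and Kcnj4 encode the strong rectifiers Kir2.1 and Kir2.3 and were highest in dorsal striatum, whereas Kcnj12 and Kcnj14, which encode their relatives Kir2.2 and Kir2.4, were called highest in no region. Kcnj12 ranged from 10.1 to 12.7 CPM in dorsal striatum and 8.91 to 16.3 in hypothalamus, which overlapped, and Kcnj14 reached at most 1.21 CPM (hypothalamus). Kcnj4 (chr15:79483714-79505241, GRCm38) ranged from 60.3 to 78.9 (median 67.4) CPM in dorsal striatum, 21.8 to 47.9 (38.0) in ventral striatum and 0.926 to 9.46 (2.38) in hypothalamus, and was 33.9, 37.4, 36.5, 36.3 and 36.5 in motor cortex. Ventral striatum and motor cortex overlapped, and the log2 fold change of hypothalamus over dorsal striatum was -4.59, SE 0.196, edgeR adjusted p = 2.64e-132. Kcnj2 (chr11:111066164-111076821) ranged from 66.7 to 117 (median 91.2) CPM in dorsal striatum, 30.1 to 61.1 (54.4) in ventral striatum and 9.68 to 18.5 (13.98) in hypothalamus, and was 14.2, 17.1, 22.6, 26.6 and 23.5 in motor cortex (log2 fold change of motor cortex over dorsal striatum -2.20, SE 0.157, edgeR adjusted p = 1.28e-39). In ventral striatum both genes were lowest in KO ventral striatum 8 (Kcnj2 30.1 CPM, Kcnj4 21.8 CPM) and WT ventral striatum 3 (Kcnj2 42.6 CPM, Kcnj4 24.4 CPM), the 2 libraries with the lowest striatal marker sums of that region (1741 and 2027 CPM). They were also the lowest of ventral striatum for Kcnab1 (68.8 and 82.4 CPM), Kcna4 (56.7 and 58.3) and Kcnd2 (147 and 158). The same held for Kcnk2 (27.3 and 30.5 CPM), and for Kcnc4 they were the highest (95.1 and 59.5 CPM). For Kcnc2, Kcnd3 and Kcng1 they were not the 2 lowest or the 2 highest. The part of the striatal markers in the differences between the striatal regions was not tested for any of these genes.

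Among the G-protein-gated rectifiers, Kcnj3, Kcnj6 and Kcnj9 were highest in motor cortex. Kcnj3 (chr2:55435970-55598145) encodes GIRK1 and stood at 169, 151, 134, 145 and 159 CPM in motor cortex, 39.9 to 64.7 (median 54.4) in hypothalamus, 13.3 to 24.4 (21.5) in ventral striatum and 9.81 to 28.3 (12.02) in dorsal striatum (log2 fold change of motor cortex over dorsal striatum 3.44, SE 0.158, edgeR adjusted p = 4.39e-104). Other annotated genes shared 31.1% of its exon length. Kcnj6 (chr16:94748636-94997701), the gene of GIRK2, followed it with 45.7, 42.0, 47.3, 43.5 and 44.6 CPM in motor cortex, 18.6 to 24.3 (21.7) in hypothalamus, 2.31 to 8.60 (4.28) in ventral striatum and 1.84 to 9.44 (2.24) in dorsal striatum (log2 fold change of motor cortex over dorsal striatum 3.62, SE 0.201, edgeR adjusted p = 4.09e-85). In dorsal striatum the highest values of Kcnj3 and Kcnj6 were both in KO dorsal striatum 7, the library with the highest cortical marker sum of its region. Without that library the log2 fold change of motor cortex over dorsal striatum was 3.71 for Kcnj3 and 4.16 for Kcnj6. Kcnj9, the gene of GIRK3, stood in motor cortex at 46.6 to 56.9 CPM. Kcnj5 (chr9:32314707-32344350), the gene of GIRK4, differed from the other 3. It was at 0 CPM in 4 motor cortex libraries and at 0.241 CPM in the other, and ranged from 0 to 4.46 (median 1.02) CPM in dorsal striatum, 1.73 to 6.33 (4.08) in ventral striatum and 7.01 to 10.3 (9.003) in hypothalamus. Against a floor of 3 counts per library, Kcnj5 was at least 12-fold higher in hypothalamus and at least 5.67-fold higher in ventral striatum than in motor cortex.

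Kcnj10 and Kcnj16 encode Kir4.1 and its partner Kir5.1, rectifiers of glial potassium uptake, and both were highest in hypothalamus. Kcnj10 ranged from 376 to 488 (median 412) CPM in hypothalamus, 109.7 to 165 (144) in dorsal striatum and 126 to 228 (155) in ventral striatum, and was 228, 244, 206, 222 and 214 in motor cortex. Kcnj16 ranged from 40.1 to 49.9 (median 43.9) CPM in hypothalamus and 5.89 to 10.3 (7.13) in dorsal striatum, without overlap (log2 fold change 2.57, SE 0.150, edgeR adjusted p = 7.33e-69). The summed level of 6 astrocyte markers was lower in hypothalamus (3480 to 4714 CPM) than in dorsal striatum (5724 to 6921) and motor cortex (6857 to 7758), and overlapped that of ventral striatum (4353 to 5788). Slc1a2 made up most of this sum, with 2895 to 4163 CPM in hypothalamus and 5304 to 6542 in dorsal striatum. The other 5 markers did not follow it: Aqp4 (69.0 to 98.2 against 33.4 to 44.1 CPM), Gfap (54.4 to 95.3 against 9.59 to 41.7) and Gja1 (109.8 to 134 against 64.2 to 96.7) were higher in hypothalamus than in dorsal striatum without overlap, and Slc1a3 (253 to 352 against 213 to 257) and Aldh1l1 (17.6 to 28.1 against 12.4 to 18.6) overlapped. The part of astrocytes in the levels of Kcnj10 and Kcnj16 was not tested. The ATP-sensitive rectifiers were low, Kcnj11 with at most 11.4 CPM and Kcnj8 with at most 2.90 CPM in any library.

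**Figure D4:**
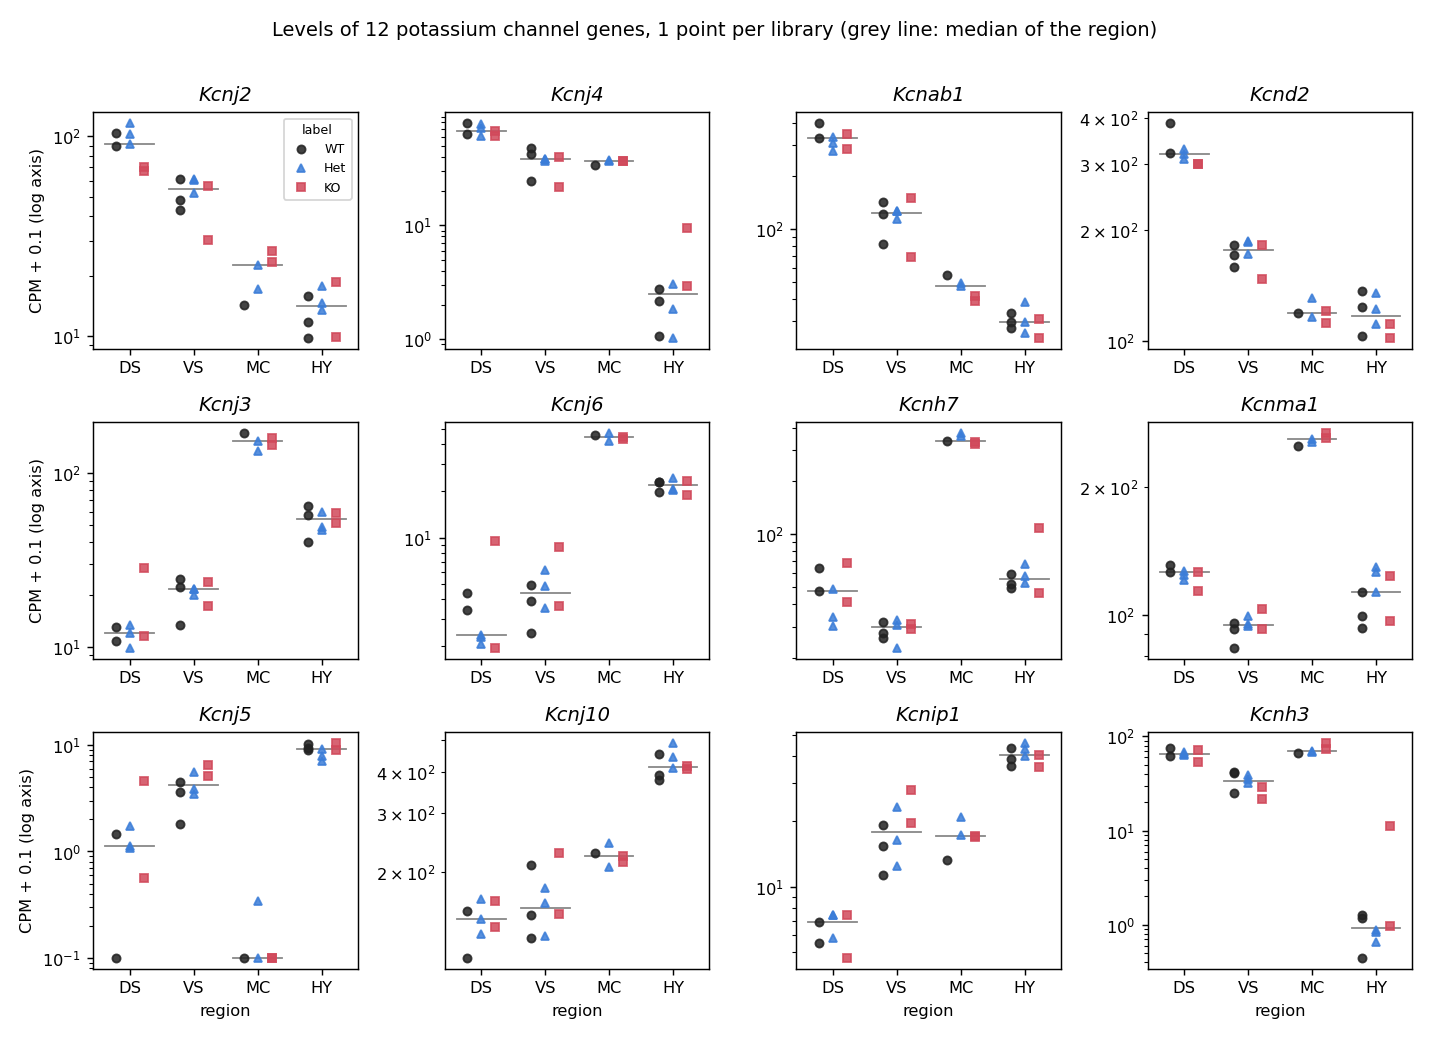
CPM + 0.1 (log axis) of 12 potassium channel genes in dorsal striatum (DS), ventral striatum (VS), motor cortex (MC) and hypothalamus (HY), with 1 point per library marked by genotype label and a grey line at the region median. Kcnj2, Kcnj4, Kcnab1 and Kcnd2 are highest in dorsal striatum, Kcnj3, Kcnj6, Kcnh7 and Kcnma1 in motor cortex and Kcnj5, Kcnj10 and Kcnip1 in hypothalamus, and Kcnh3 is at most 1.16 CPM in 7 hypothalamus libraries and 11.2 CPM in KO hypothalamus 8.

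Of the 11 two-pore-domain channels, which carry leak current, 1 was called highest in dorsal striatum (all genes 7.53%), 2 in motor cortex (10.6%) and 1 in hypothalamus (11.7%). Kcnk2 encodes the mechanosensitive channel TREK-1 and ranged from 74.0 to 148 (median 84.6) CPM in dorsal striatum and 27.3 to 45.8 (36.7) in ventral striatum, without overlap (log2 fold change 1.43, SE 0.118, edgeR adjusted p = 5.93e-32). It was 34.4, 29.4, 29.8, 21.7 and 29.5 CPM in motor cortex and 16.2 to 26.2 CPM in hypothalamus, and other annotated genes shared 12.2% of its exon length. The acid-sensitive channels TASK-1 and TASK-3 had the reverse order: Kcnk3 was 4.497 to 9.44 CPM in dorsal striatum and 24.0 to 32.5 CPM in hypothalamus, and Kcnk9 2.40 to 5.45 and 15.1 to 24.3 CPM. For Kcnk9 the log2 fold change of hypothalamus over ventral striatum was 1.40, SE 0.137, edgeR adjusted p = 4.77e-25. Kcnk4, which encodes TRAAK, was 6.25, 5.07, 4.63, 7.17 and 4.05 CPM in motor cortex, and all ventral striatum libraries were at or under the floor of 3 counts, so that motor cortex was at least 7.27-fold higher. Catsperz shared 13.1% of the exon length of Kcnk4.

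Genes that work with these channels or move potassium by other means were counted from a list of 24, of which 21 were tested. Between motor cortex and dorsal striatum 16 were called (76.2%, all genes 43.4%), 12 higher (all genes 22.0%) and 4 lower (21.4%). Between motor cortex and ventral striatum 18 were called (85.7%, all genes 43.7%), 13 higher (21.5%) and 5 lower (22.2%). Hypothalamus had 14 higher and 2 lower both against dorsal striatum (76.2% called, all genes 56.1%) and against ventral striatum (76.2%, all genes 43.6%), and 8 higher and 9 lower against motor cortex (81.0%, all genes 48.2%). Dorsal striatum had 4 higher and 7 lower than ventral striatum (52.4%, all genes 29.0%). Dpp10, a partner of Kv4 channels, ranged from 13.2 to 36.7 CPM in dorsal striatum and 73.4 to 94.1 CPM in hypothalamus (log2 fold change 1.65, SE 0.108, edgeR adjusted p = 9.22e-51). Atp1b2, a glial beta subunit of the sodium pump, was 1158 to 1426 CPM in hypothalamus and 436 to 682 CPM in dorsal striatum (log2 fold change 1.30, SE 0.102, edgeR adjusted p = 1.7e-34).

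Between genotypes few channel genes differed. In dorsal striatum, 0 of the 77 were called between libraries labelled KO and WT (0.387% of all genes were) by edgeR's likelihood ratio test, 0 by its quasi-likelihood test and 0 by DESeq2, and 11 had an unadjusted p under 0.05 (all genes 7.94%). In ventral striatum 0 were called (all genes 0.0801%) by each of these tests, and 10 had an unadjusted p under 0.05 (5.40%). In motor cortex, with 1 WT library and hence no spread of that group, 0 were called (0.0334%) by each test, and 4 had an unadjusted p under 0.05 (4.33%). In hypothalamus 3 were called (0.167%), all higher in KO (0.147%), and 10 had an unadjusted p under 0.05 (6.01%). Between Het and WT, 0 were called in dorsal striatum (0.0868%), ventral striatum (0.0534%), motor cortex (0.0134%) and hypothalamus (0.0935%) by each of the 3 tests, with 11, 5, 1 and 4 at an unadjusted p under 0.05 (7.95%, 4.5%, 3.71% and 5.62%). The difference between KO and WT in dorsal striatum, taken against the mean of that in ventral striatum and hypothalamus, was called for 0 channel genes (0.0467%) by each test, and 12 had an unadjusted p under 0.05 (5.59%). Samples of 1 group were separate libraries, but the labels do not say whether they are separate animals, so p-values measure the spread between libraries.

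The 3 genes called in hypothalamus were Kcnh3, Kcnj4 and Kcnv1, and in each the difference lay mainly in 1 library. Kcnh3 was 1.16, 0.344 and 1.07 CPM in WT, 0.556, 0.745 and 0.779 in Het and 0.867 and 11.2 in KO (log2 fold change of KO over WT 2.79, SE 0.505, edgeR adjusted p = 4.46e-06). Kcnj4 was 0.968, 2.07 and 2.69 CPM in WT, 0.926, 2.98 and 1.75 in Het and 2.82 and 9.46 in KO (log2 fold change 1.66, SE 0.396, edgeR adjusted p = 0.0142). Kcnv1 was 3.29, 2.93 and 4.84 CPM in WT, 4.08, 6.70 and 2.73 in Het and 2.60 and 20.4 in KO (log2 fold change 1.64, SE 0.416, edgeR adjusted p = 0.0405). KO hypothalamus 8 was above every other hypothalamus library for each gene, whereas KO hypothalamus 7 lay inside the WT range for Kcnh3, below it for Kcnv1 and above it for Kcnj4. Without KO hypothalamus 8, which left 1 KO library, the log2 fold changes were 0.03 for Kcnh3, 0.54 for Kcnj4 and -0.50 for Kcnv1. Its 8 cortical markers summed to 567 CPM against 213 to 334 in the other hypothalamus libraries, and Kcnh3, Kcnj4 and Kcnv1 were each lower in hypothalamus than in motor cortex. With the mean of these markers as a covariate, chosen after the values were seen, 1 gene was called (Kcnh3, log2 fold change 2.34, edgeR adjusted p = 0.00133). Under that covariate the log2 fold change was 1.51 for Kcnj4 (edgeR adjusted p = 0.22), against 1.66 without it, and 0.995 for Kcnv1 (edgeR adjusted p = 0.864), against 1.64. The covariate was a mean of log2 levels with 1 slope over all 28 libraries. It therefore could not decide whether cortical tissue in a single library gave these differences, for Kcnh3 as for the others, and that was not tested. With the quasi-likelihood test 0 genes were called, and with DESeq2 1.

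**Figure D5:**
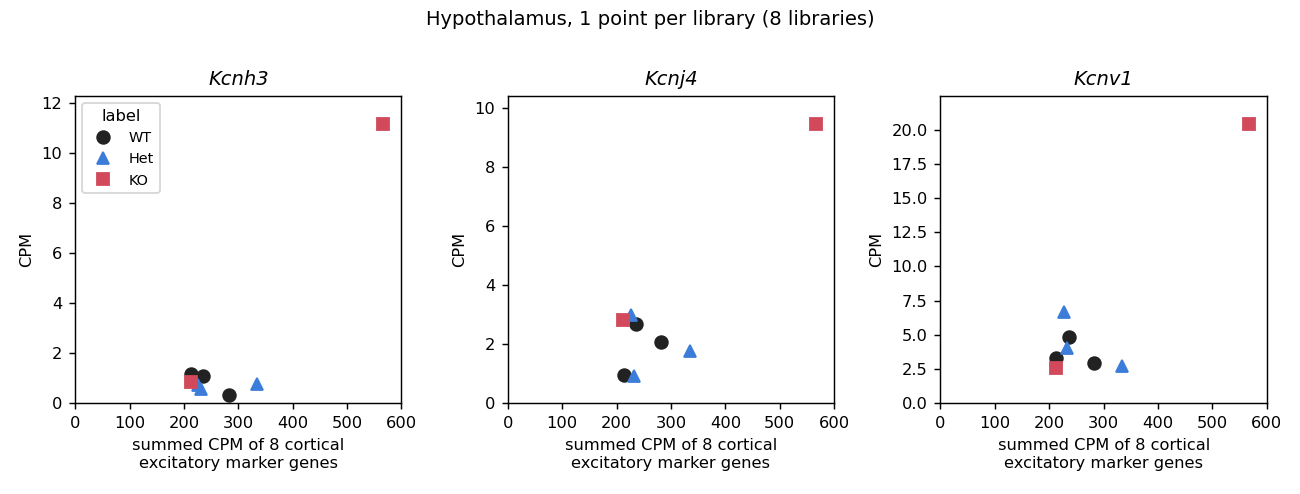
CPM of Kcnh3, Kcnj4 and Kcnv1 against the summed CPM of 8 cortical excitatory marker genes in the 8 hypothalamus libraries, by genotype label. KO hypothalamus 8 lies alone at the upper right of each panel, at a marker sum of 567 CPM, and the other KO library has the lowest marker sum of the 8 and the lowest Kcnv1 level (2.60 CPM).

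In dorsal striatum the smallest unadjusted p-values between KO and WT belonged to Kcnc2, Kcnd3 and Kcnc4, and none passed the adjustment. Kcnc2 was 7.50 and 22.7 CPM in WT, 15.3, 18.6 and 47.7 in Het and 27.9 and 67.7 in KO (log2 fold change 1.64, SE 0.461, edgeR adjusted p = 0.0835). Kcnd3 was 25.2 and 27.7 CPM in WT, 37.9, 31.4 and 36.2 in Het and 35.9 and 40.9 in KO (log2 fold change 0.53, SE 0.177, edgeR adjusted p = 0.197). Both KO libraries lay above both WT libraries for each gene, as did 1 Het library for Kcnc2 and all 3 for Kcnd3. In ventral striatum the smallest p-values were those of Kcnk9, Kcnip1 and Kcnh4. Kcnk9 was 3.75, 5.92 and 4.11 CPM in WT, 7.02, 10.7 and 6.47 in Het and 6.85 and 12.7 in KO, with each Het and KO library above the WT libraries (log2 fold change of KO over WT 1.07, SE 0.296, edgeR adjusted p = 0.163). The highest value belonged to KO ventral striatum 8, which also had the highest sum of 8 hypothalamic markers of its region (67.8 CPM, other ventral striatum libraries 6.06 to 32.1), and Kcnk9 was highest in hypothalamus. Slc17a6 made up most of that marker sum, with a highest ventral striatum level of 64.0 CPM. Hcrt, Pmch, Pomc, Agrp, Avp and Oxt reached at most 1.90 CPM in any ventral striatum library, and Gal at most 6.23 CPM. The part of these markers was not tested. Kcnk2 in dorsal striatum was 148 and 108 CPM in WT, 74.0, 84.6 and 83.9 in Het and 104 and 81.1 in KO (log2 fold change of Het over WT -0.66, SE 0.195, edgeR adjusted p = 0.186). Of the 21 partner genes, 1 was called between KO and WT in dorsal striatum (0.387% of all genes) and 0 in the other regions by edgeR's likelihood ratio test. This was Slc12a2, which encodes the sodium-potassium-chloride cotransporter NKCC1 and was 41.4 and 43.8 CPM in WT, 50.5, 48.8 and 47.7 in Het and 58.2 and 83.7 in KO (log2 fold change 0.73, SE 0.179, edgeR adjusted p = 0.0237). The highest value belonged to KO dorsal striatum 8, the library with 2841 CPM of choroid plexus markers, and without it the log2 fold change was 0.45 (edgeR adjusted p = 0.789). The summed level of 8 oligodendrocyte markers also differed between the genotypes in dorsal striatum, at 2826 to 3294 CPM in WT, 4040 to 4197 in Het and 4221 to 5388 in KO without overlap, and its part in these differences was not tested.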

How the data were processed

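RNA-seq libraries of 4 brain regions from WT, Het and KO mice were used as raw gene counts deposited by the authors, who trimmed reads with Trimmomatic 0.32, aligned them to GRCm38 with STAR 2.3.1z8 and counted them over Ensembl 75 exons with HTSeq 0.6.1p1. The strand setting is not given in the sources used here. Libraries held 3536802 to 5150280 counts on genes, 44.78 to 54.22% of the tallied reads, and 6 rows that name no gene were left out. Gene symbols came from GENCODE M21 (28842 of 29878 identifiers). Replicate pairs differed beyond sampling noise, with chi-square per degree of freedom of 1.78 to 13.3 over 21 pairs.

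Genes above 1 CPM in at least 2 libraries were fitted with edgeR 4.0.16 (R 4.3.3) using TMM factors, 1 mean for each of the 12 groups of region and genotype over all 28 libraries and the likelihood ratio test, with Benjamini-Hochberg adjustment over all 14979 genes and a threshold of 0.05. Region comparisons averaged the genotypes. Scripts were tested on simulated data. The members and gene lists were chosen with earlier results of these data known. Test statistics were given for members past the threshold, up to 8 in each direction by fold change and 4 by p in each region comparison, for called members or otherwise the 3 smallest p-values in each genotype comparison, and for up to 4 partners. Alternatives were the quasi-likelihood test, DESeq2 1.42.0, total-count scaling, no filter, a replicate block, libraries of 1 region only, marker covariates and leaving out each library. A cortical marker covariate in hypothalamus and the joint removal of 3 libraries were added after seeing the data. Promoter windows came from RefSeq (GRCm38.p6). Single values of some genes are not reported here.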

Additional observations from a re-analysis of the deposited data

How the results depend on the processing

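The 62 log2 fold changes between regions of genes chosen by the naming rule kept their direction and their side of the threshold under each alternative run, in 1228 values. These genes had been picked among called genes for large fold changes or small p-values, so this does not describe the other called genes. With total-count scaling, 37 of the 40 genes called between dorsal and ventral striatum were called again. Between hypothalamus and motor cortex 52 of 56 were. Counts by direction moved with total-count scaling, which turned the dorsal against ventral striatum split from 25 higher and 15 lower to 22 and 25. Leaving out 1 library gave 37 to 42 called channel genes between dorsal and ventral striatum, 57 to 60 and 51 to 55 for motor cortex against these regions, and 56 to 62, 52 to 58 and 53 to 57 for hypothalamus against dorsal striatum, ventral striatum and motor cortex. In the same order, leaving out KO hypothalamus 8 and KO dorsal striatum 7 and 8 together, chosen after seeing the data, gave 38, 59, 54, 61, 53 and 55. The library number was not used to pair samples. The mean correlation of deviations was 0.007 for libraries of the same number and -0.004 for others. Within KO groups of 2 libraries the values for the same and the other number are exact opposites, so these means could not show whether libraries share a mouse. With the number as a replicate block the counts were 40, 59, 51, 59, 57 and 56.

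Genotype results depended on single libraries and settings. Between KO and WT in dorsal striatum, total-count scaling gave 5 called genes (499 among all genes, whose median log2 fold change was then 0.28), and no filter 1 (57 among all genes). The number called also changed when KO 7, KO 8 or WT 2 was left out, each of which left 1 library in its group. In ventral striatum the number called changed when KO 7 was left out, which left 1 KO library. In hypothalamus the quasi-likelihood test and the fit to that region alone gave 0 (4 and 10 among all genes), and DESeq2 and the cortical marker covariate 1 each (6 and 8 among all genes). The number called there rose without KO 7 and fell without KO 8, each of which left 1 KO library, and was also lower without WT 1 and without WT 2. Leaving out 1 library gave log2 fold changes of Kcnv1 from -0.50 (without KO 8) to 2.42 (without KO 7). For Het against WT in dorsal striatum the number called changed without WT 2, and for the difference between regions without KO hypothalamus 7. Each of these left 1 library in its group. The cause of these changes was not tested. With 1 to 3 libraries per group, small differences between genotypes may not have been detectable.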
